A study of Mus musculus with 6 samples.

Results

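Transcripts of 10 genes of the desmosome were compared between CD34+ and CD34- keratinocytes of mouse skin. The set holds 6 desmosomal cadherins (Dsg1a, Dsg2, Dsg3, Dsc1, Dsc2 and Dsc3), 3 plaque proteins (Dsp, Jup and Pkp1) and the membrane protein Perp. Its members were found by name, from array probes whose accession or description names them, a rule that uses no measured value, although the list was drawn up with earlier results of these data known. All 10 had at least 1 named probe, with 11 probes in all. A further 2 probes are described as desmoglein 1 without telling its mouse paralogs apart, which made 13 desmosomal probes among the 20395 probes tested. All 11 probes of the members were well above background in both populations on all 6 arrays, and none was saturated. A fit restricted to probes with that background mark held 18327 of the 20868 probes, so the mark is no trait of the members.

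Desmosomes are spot-like junctions that fasten the keratin filaments of neighbouring epithelial cells to each other. Desmogleins and desmocollins, the transmembrane cadherins, bind each other in the gap between cells. Plakoglobin (Jup) and plakophilins bind the cadherin tails on the inner side, and desmoplakin (Dsp) links this plaque to the keratin filaments. In epidermis Dsg3 and Dsc3 are known mainly from the lower layers and Dsg1, Dsc1 and Pkp1 mainly from the upper ones, and Perp is a tetraspan membrane protein that desmosomes of stratified epithelia need.

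The cells came from the skin of mice aged 7 weeks and were released with 0.25% trypsin at 32 °C over 2 hours. They were stained for CD34, a surface protein of bulge cells in the hair follicle, and for the alpha-6 integrin. Flow cytometry then gave an alpha6+CD34+ fraction, labelled as stem and progenitor cells, and an alpha6+CD34- fraction, labelled as basal cells. The labels give no strain, sex or genetic change for either fraction and do not say whether animals were pooled. RNA of both fractions was hybridised together in Cy3 and Cy5 to arrays of 60-mer probes. Each of 3 biological replicates went onto 2 arrays, the second a dye flip of the first, and counts once (n = 3). The values are RNA levels and say nothing of cadherin protein, which trypsin can cut.

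The sorted gene followed the labels: the log2 ratio of Cd34 was 5.83, 6.27 and 5.42 in replicates 1, 2 and 3, a rise of 5.84 ± 0.43 (SD, n = 3) with an adjusted p of 0.00372. Itga6, the alpha-6 integrin gated on in both fractions, fell by 1.18 ± 0.27 on its brighter probe (adjusted p = 0.0181) and by 0.79 ± 0.16 on the dimmer (adjusted p = 0.0182). Of 10 bulge markers, Cd34 itself among them, 9 rose, with a median log2 ratio of 3.11, where 5.40% of all probes tested rose. The markers were chosen with earlier results of these data known, so their rise is no separate test of the sort. Krt15 did not pass, and its probe was saturated in CD34+ cells on 6 arrays and in CD34- cells on 3. Between 92.9% and 97.7% of the non-control probes on an array were well above background, counted in each population by itself. Scanner files of replicate 3 name another version of the reading software than those of replicates 1 and 2, so that version cannot be told apart from replicate 3. In bulk RNA of sorted cells, fewer cells of a type and less RNA per cell cannot be told apart.

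Of the 10 desmosomal genes, 1 rose in CD34+ cells (Dsp), 1 fell (Dsg1a) and 8 did not pass the test, each taken by its brightest probe. Over all probes tested 5.40% rose and 6.62% fell by the same rule, a limma adjusted p under 0.05, so both member counts lie close to the background. By their means 7 members were lower and 3 were higher in CD34+ cells, and 6 members had the same sign on all 6 arrays. The shares of all probes for these counts were not worked out, so neither count is read as a trait of the members. The median log2 ratio of the members was -0.13 (-0.06, -0.13 and -0.03 within replicates 1, 2 and 3), against 0.00417 over all probes tested. The median size of the ratio, whatever its sign, was 0.16 for the members and 0.10 for all probes. Leaving out replicate 1 or replicate 2 left 0 members past the test, and leaving out replicate 3 gave 1 that rose and 3 that fell. Over all 20395 probes 0, 253 and 4242 passed without replicates 1, 2 and 3, so the member counts moved with those of the whole array.

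**Figure D1:**
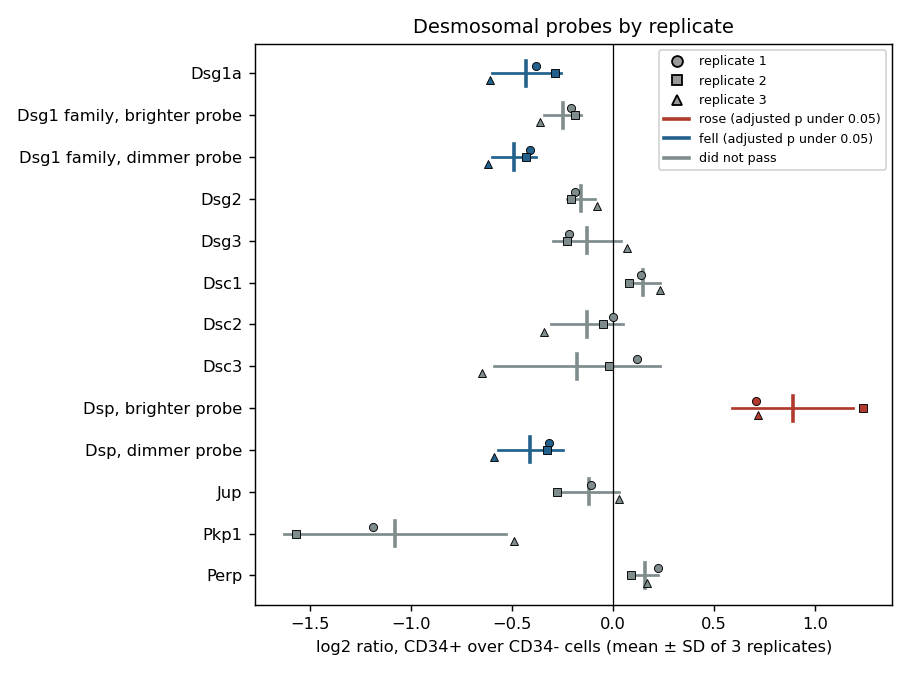
Log2 ratio of CD34+ over CD34- cells for the 13 desmosomal probes, with a symbol for each of 3 replicates, a vertical tick at the mean and a line of 1 SD to each side. The brighter Dsp probe lies to the right at 0.89, the dimmer Dsp probe and the desmoglein 1 probes lie to the left, and Pkp1 has the lowest mean, -1.08, with the widest line.

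Desmogleins come first among the cadherins. The Dsg1a probe had log2 normalised intensities of 6.55, 6.37 and 6.79 in CD34+ cells of replicates 1, 2 and 3, and of 6.93, 6.66 and 7.40 in the CD34- cells of the same replicates. CD34+ was lower in every replicate, although the ranges of the populations overlap because the level of both moved from replicate to replicate. Dsg1a fell by 0.43 ± 0.17 (SD, n = 3; 95% interval -0.64 to -0.22), which is 1.35-fold, with an adjusted p of 0.0424. Before the offset of 50 that steadies dim spots was added, the net intensity of this probe was 31.2 to 115 in CD34+ and 55.1 to 187 in CD34- cells. On the deposited log ratios, which carry no such offset, the fall was 0.85 ± 0.14, and the authors' deposited error model gave a p under 0.01 on 4 of 6 arrays. The fall passed without replicate 3 (adjusted p = 0.0250) but not without replicate 1 (0.153) or replicate 2 (0.119).

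The dimmer of the desmoglein 1 probes without a paralog fell too, by 0.49 ± 0.11 (adjusted p = 0.0238). Its levels were 7.01, 6.87 and 6.99 in CD34+ cells against 7.42, 7.30 and 7.60 in CD34- cells, with no overlap. Among the fits that leave out 1 replicate it passed only without replicate 3 (adjusted p = 0.0128). The brighter of them had 8.64, 8.35 and 8.87 against 8.85, 8.54 and 9.23, a log2 ratio of -0.25 ± 0.09 that did not pass (adjusted p = 0.0620). All 3 desmoglein 1 probes were lower in CD34+ cells on 6 of 6 arrays. Mouse Dsg1a, Dsg1b and Dsg1c are close copies, and which transcripts each probe reads is not settled by the descriptions in the files, so the fall belongs to desmoglein 1 probes rather than to a known paralog.

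Dsg2, the desmoglein of simple epithelia and of the hair follicle, had levels of 7.35, 7.35 and 7.55 in CD34+ cells and 7.55, 7.56 and 7.63 in CD34- cells. The log2 ratio was -0.16 ± 0.07, negative on 6 of 6 arrays, and did not pass (adjusted p = 0.127; 95% interval -0.30 to -0.02). Dsg3, the desmoglein of basal layers and in human skin the target of autoantibodies in pemphigus vulgaris, had replicate ratios of -0.22, -0.23 and 0.07. Its mean of -0.13 ± 0.17 did not pass (adjusted p = 0.365), and the sign in replicate 3 was opposite to that in the others. Without replicate 3 the Dsg3 ratio was -0.23 with an adjusted p of 0.0496.

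Desmocollins, the other cadherin class, did not pass for any of their 3 genes. Dsc1, the desmocollin of upper layers, had 7.22, 7.22 and 7.44 in CD34+ cells and 7.08, 7.14 and 7.20 in CD34- cells, so that every CD34+ level lay above every CD34- level. This held for 6.89% of all probes tested. The Dsc1 ratio of 0.15 ± 0.08 did not pass all the same (adjusted p = 0.144; 95% interval 0.01 to 0.29), and it was the only cadherin with a mean above 0.

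Dsc2, the most widely expressed desmocollin, had replicate ratios of 0.00, -0.05 and -0.34 and a mean of -0.13 ± 0.18 (adjusted p = 0.367). Dsc3, which basal keratinocytes are known to need for adhesion, had 0.12, -0.02 and -0.65, with a mean of -0.18 ± 0.41 (adjusted p = 0.518). Both means rest on replicate 3: without it they were -0.03 for Dsc2 and 0.05 for Dsc3, with adjusted p of 0.769 and 0.636. With a batch term for the scanner software Dsc3 stood at -0.30. Replicate 3 is the only one of its version, so that fit takes its spread from replicates 1 and 2 alone. The SD of Dsc3 over replicates was larger than that of 96.1% of all probes tested, where the median SD was 0.10.

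The 6 cadherin genes are not spread over the genome. In the RefSeq table of assembly GRCm38.p6 all 9 mouse desmosomal cadherin genes stand next to each other in the order Dsc3, Dsc2, Dsc1, Dsg1c, Dsg1a, Dsg1b, Dsg4, Dsg3 and Dsg2, with no other protein-coding gene between them. Along this row the mean ratios of the measured genes were -0.18, -0.13, 0.15, -0.43, -0.13 and -0.16. The median of the 6 was -0.14, and 1 of them passed the test. The value at Dsg1a is that of a desmoglein 1 probe whose paralog is not settled, and differences between the cadherin genes were not tested.

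Plaque proteins spanned a wider range of ratios than the cadherins, from -1.08 to 0.89. By brightest probes, mean log2 levels were 6.57 to 8.03 for the cadherins and 9.02 to 13.88 for the plaque proteins. The offset understates changes of dim probes, which bears more on the cadherins. On the deposited log ratios, which carry no offset, cadherins ran from -0.85 (Dsg1a) to 0.24 (Dsc1). Plaque proteins ran from -1.05 (Pkp1) to 0.95 (Dsp) on those ratios. The part of brightness in this contrast was not tested. Dsp, the linker to keratin, rose on its brighter probe. The levels there were 13.75, 14.12 and 13.78 in CD34+ cells and 13.04, 12.87 and 13.06 in CD34- cells. Every CD34+ level lay above every CD34- level. The rise was 0.89 ± 0.30 (SD, n = 3; 95% interval 0.55 to 1.24), or 1.86-fold, with an adjusted p of 0.0289, the smallest among the members. It was positive on 6 of 6 arrays, between 0.66 and 1.27, and 98.4% of all probes tested had a lower ratio. Without replicate 3 the rise was 0.98 (adjusted p = 0.0208); without replicate 1 it was 0.98 (adjusted p = 0.107) and without replicate 2 it was 0.72 (adjusted p = 0.0537).

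The dimmer Dsp probe went the other way. It had 7.11, 6.72 and 6.44 in CD34+ cells against 7.43, 7.05 and 7.03 in CD34- cells, lower in every replicate with overlapping ranges. Its ratio fell by 0.41 ± 0.16, with an adjusted p of 0.0417, and by 0.75 ± 0.34 on the deposited log ratios. Without replicate 1 or replicate 2 it did not pass (adjusted p = 0.132 and 0.148). The difference between the Dsp probes was 1.03, 1.57 and 1.32 in replicates 1, 2 and 3, a mean of 1.31 ± 0.27, and their signs were opposite on 6 of 6 arrays.

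Net intensities of the brighter Dsp probe ran from 6245 to 19422 in CD34+ cells, those of the dimmer from 50.3 to 107. The files describe the brighter probe as a homolog of a bovine desmoplakin fragment and the dimmer simply as desmoplakin, and they hold no probe sequence or position. Which part or isoform of the transcript each reads was not tested. Averaging both probes gave Dsp a ratio of 0.24 with an adjusted p of 0.167, so the rise of Dsp holds for the brighter probe only.

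Jup, plakoglobin, which also serves in adherens junctions, had levels of 8.74, 8.51 and 9.82 in CD34+ cells and 8.85, 8.78 and 9.79 in CD34- cells. Replicate 3 stood higher than the others in both populations, by more than the populations differed within any replicate. The Jup ratio was -0.12 ± 0.15 and did not pass (adjusted p = 0.342; 95% interval -0.32 to 0.08).

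Pkp1, the plakophilin that gathers desmosomal proteins at the plaque of upper layers, had the lowest ratio among the members. Its levels were 12.04, 11.76 and 13.12 in CD34+ cells and 13.22, 13.32 and 13.61 in CD34- cells. Every CD34+ level lay below every CD34- level, as for 9.26% of all probes tested. The replicate ratios of -1.19, -1.57 and -0.49 gave a mean of -1.08 ± 0.55, or 2.11-fold lower, which just missed the threshold (adjusted p = 0.0536; 95% interval -1.68 to -0.48). The ratio was negative on 6 of 6 arrays, and only 1.25% of all probes tested had a lower one.

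Replicate 3 lay apart from the others for Pkp1. Without replicate 3 the ratio was -1.38 with an adjusted p of 0.00610. A batch term for the scanner software gave -0.93, in a fit that takes its spread from replicates 1 and 2 alone. Leaving out replicate 1 gave -1.03 (adjusted p = 0.194) and leaving out replicate 2 gave -0.84 (adjusted p = 0.149). The call of Pkp1 thus turned on the processing: it passed in 8 of 16 alternatives, the batch term among them, always lower in CD34+ cells.

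Perp, a target gene of p53 and p63, had a small ratio. Its levels were 14.90, 14.94 and 15.31 in CD34+ cells and 14.68, 14.84 and 15.14 in CD34- cells, higher in CD34+ in each replicate with overlapping ranges. The ratio of 0.16 ± 0.06 did not pass (adjusted p = 0.117). Under median centring in place of loess its direction turned, to -0.29 with an adjusted p of 0.310, and that of the brighter Dsp probe came down to 0.57 with an adjusted p of 0.0684.

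**Figure D2:**
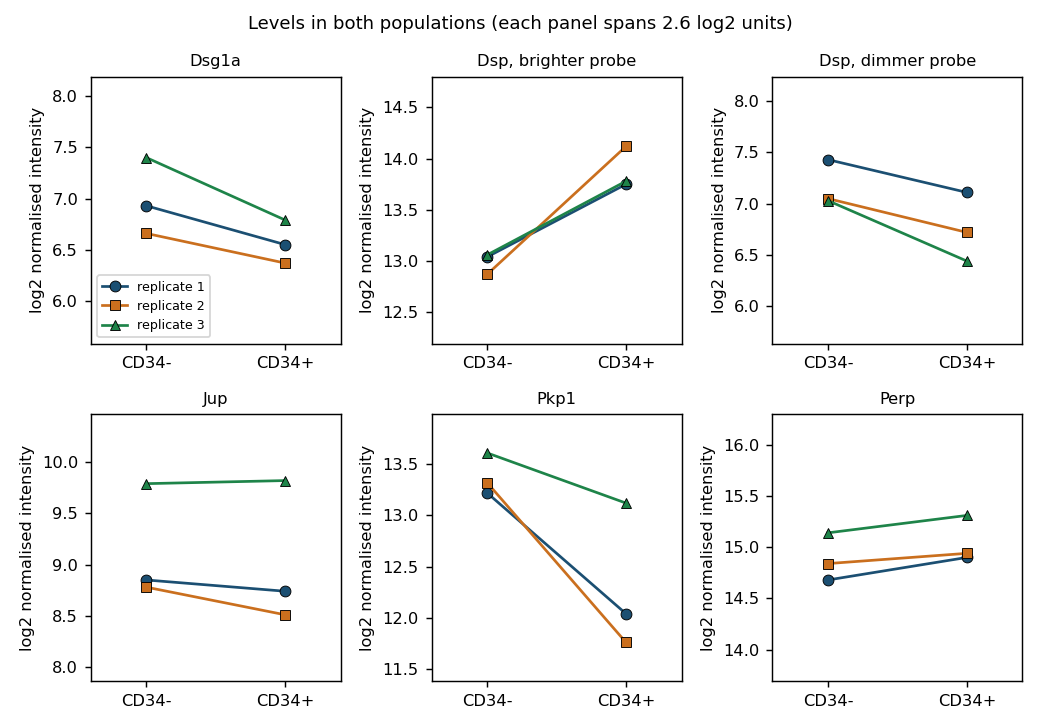
Log2 normalised intensity in CD34- and CD34+ cells for 6 probes, with a line joining the populations of each replicate; all panels span the same number of log2 units at their own level. Lines rise for the brighter Dsp probe and fall for Dsg1a, the dimmer Dsp probe and Pkp1, while those of Jup and Perp are flatter by their means. Levels also shift between replicates, in Jup and Perp and in other panels.

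Over the members, 3 of 10 had levels that did not overlap between the populations: Dsc1 and Dsp with CD34+ above, and Pkp1 with CD34+ below. Such probes make up 6.89% and 9.26% of all probes tested in those directions. Opposite directions within the plaque left its 4 genes, Perp included, with a median of 0.02. Their summed linear intensity ran over the replicates from 49001 to 64567 in CD34+ and from 44767 to 57969 in CD34- cells. These ranges overlap, but they leave out the pairing of the populations and do not show that the populations were alike. Perp, the brightest of the 4 probes, weighs most in the sum.

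The genes whose 3 replicate ratios lay nearest to those of the brighter Dsp probe, by Euclidean distance over 9568 named genes, were Kdelr2, Col7a1 and Klf4. Kdelr2, a receptor that returns proteins to the endoplasmic reticulum, had 0.65, 1.16 and 0.67 at a distance of 0.118. Col7a1, the collagen of anchoring fibrils under the epidermis, had 0.70, 1.12 and 0.83 at a distance of 0.166. Klf4 had 0.70, 1.15 and 0.88 at a distance of 0.180. In all 3, as in Dsp, replicate 2 gave the highest ratio, which follows from choosing genes by their distance to Dsp and is no separate result.

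Of 10 other listed genes of the desmosome and corneodesmosome, 5 were measured and 0 passed in limma, with 0 at an unadjusted p under 0.05 too. Pkp2, the plakophilin of simple epithelia and heart, stood at 0.05 (adjusted p = 0.501) and Pkp3, the plakophilin of all epidermal layers, at 0.04 (adjusted p = 0.808). Cdsn, corneodesmosin, which joins desmosomes as they mature in the cornified layer, stood at -0.03 (adjusted p = 0.743).

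Envoplakin (Evpl) and periplakin (Ppl), plakins of the cornified envelope that attach near desmosomes, had a shared pattern over replicates. Evpl had ratios of -0.45, -0.56 and 0.02 (mean -0.33, adjusted p = 0.182), and Ppl had -0.66, -0.79 and 0.07 (mean -0.46, adjusted p = 0.196). In both, as in Pkp1 and several genes of the other lists, replicates 1 and 2 were lower and replicate 3 lay nearer to or above 0. Without replicate 3, 2 of the 5 genes passed, as did 4242 of all 20395 probes tested.

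In adherens junctions, the actin-linked junctions of the same cells, all 11 listed genes were measured, of which 2 rose and 1 fell, with a median ratio of -0.01. Ctnnb1, beta-catenin, a close relative of plakoglobin, had replicate ratios of 0.71, 0.83 and 0.32 and rose by 0.62 (adjusted p = 0.0423). Nectin3, an adhesion molecule of the immunoglobulin family, rose by 0.24 (adjusted p = 0.0392) with ratios of 0.25, 0.24 and 0.24. Afdn, afadin, which ties nectins to actin, fell by 0.58 (adjusted p = 0.0255). Without replicates 1, 2 and 3 in turn, 0, 0 and 5 of the list passed, against 0, 253 and 4242 of all 20395 probes tested.

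Keratins, the filaments that desmosomes hold, went in different directions: of 9 measured genes of the list, vimentin included, 1 rose and 2 fell. Krt75, a keratin of the hair follicle's companion layer, rose by 1.22 (adjusted p = 0.0352). Krt14, the basal keratin, had ratios of -1.42, -1.28 and -0.64 and fell by 1.11 (adjusted p = 0.0310), with the probe saturated in CD34- cells on 4 of 6 arrays and in CD34+ cells on 0. Krt1, the keratin of cells that have left the basal layer, fell by 2.28 on its brighter probe (adjusted p = 0.0466), and its dimmer probe stood at 0.17 (adjusted p = 0.122). Keratin genes resemble each other, so reads of related keratins by a probe cannot be told apart here.

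Among 9 measured regulators of desmosomal genes and of desmosome turnover, 1 rose and 1 fell. Klf4, a transcription factor of the skin barrier, rose by 0.91 (adjusted p = 0.0202). Grhl1, a grainyhead-like factor known in mice for its activation of Dsg1a and for desmosome defects when it is lost, fell by 0.75 (adjusted p = 0.0405), with ratios of -0.74, -1.07 and -0.44. The other 7 did not pass.

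**Figure D3:**
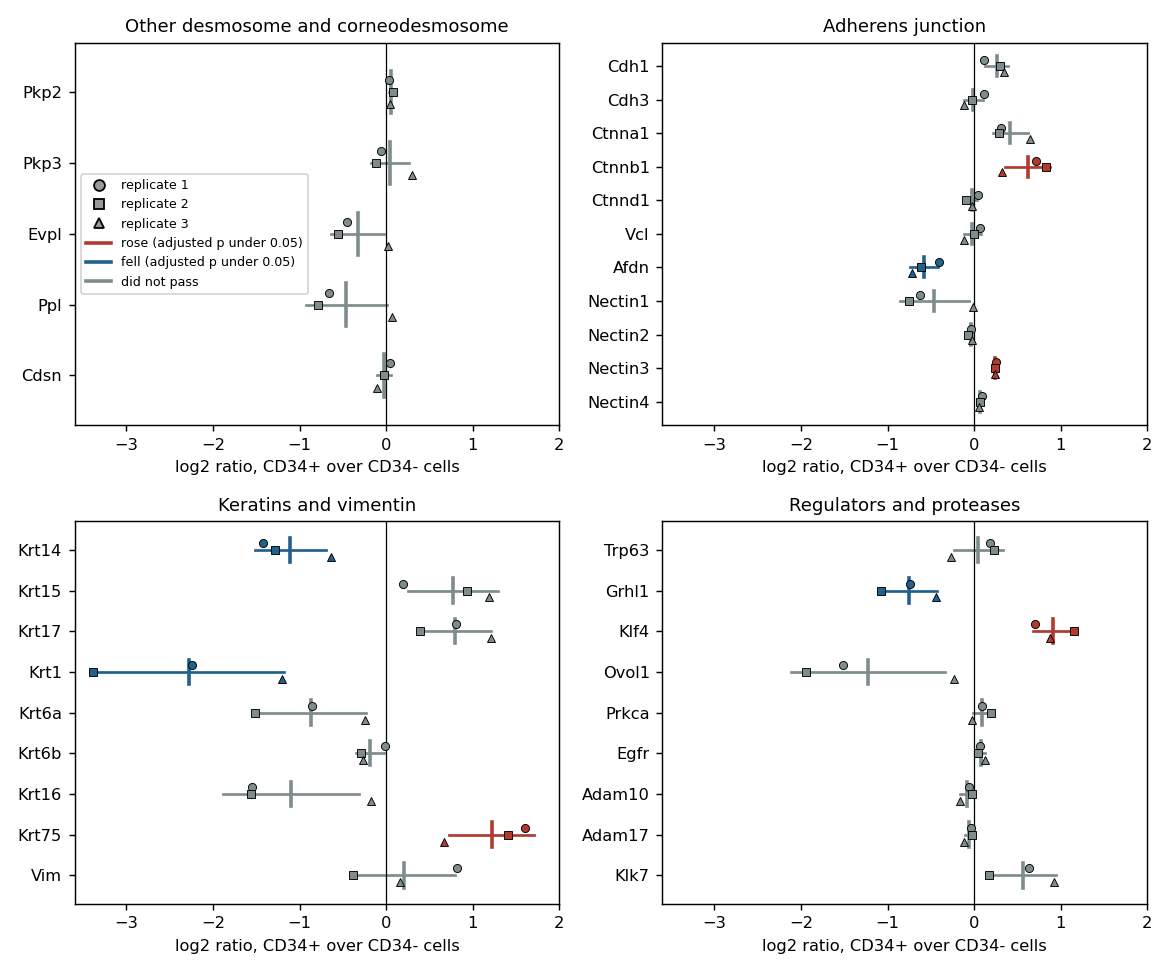
Log2 ratio of CD34+ over CD34- cells for the measured genes of 4 related lists, drawn as in the plot of the desmosomal probes, with the brightest probe of each gene. None of the 5 other desmosome genes is coloured, and Ppl and Evpl show replicate 3 apart from replicates 1 and 2.

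Markers of other cells went in different directions. Of 10 measured suprabasal markers 2 rose (Lor by 1.51, adjusted p = 0.00917, and Lce1a1 by 0.43, adjusted p = 0.0190) and Krt1 fell. Their summed linear intensity was 9569 to 26465 in CD34+ and 10306 to 17400 in CD34- cells. Krt1 on its brighter probe had ratios of -2.24, -3.39 and -1.20, lowest in replicate 2 and nearest to 0 in replicate 3, as for Pkp1. Several other listed genes that were lower in CD34+ cells had the same order, so it is not particular to Krt1 and Pkp1. The dimmer Krt1 probe had 0.21, 0.22 and 0.08 instead. The desmoglein 1 probes were lowest in replicate 3. The part of suprabasal cells in the Pkp1 and desmoglein 1 values was not tested.

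Of 5 measured melanocyte markers Mitf rose by 0.99 (adjusted p = 0.0259), Dct rose by 0.79 (adjusted p = 0.0328) and the other 3 did not pass. Their summed intensity over the replicates was 734 to 1131 in CD34+ and 552 to 778 in CD34- cells. Such ranges leave out the pairing of the populations, so an overlap does not show that they were alike. The median ratio of the melanocyte markers was 0.09, 0.04 and 0.16 within replicates 1, 2 and 3. Of 4 fibroblast markers Col1a2 rose by 1.02 (adjusted p = 0.0105), with summed intensities of 819 to 1165 against 560 to 774. None passed among 7 markers of Langerhans cells, 4 of T cells and 3 of endothelium; the smallest adjusted p in these lists were 0.141 for Cd86, 0.0512 for Cd3d and 0.424 for Cdh5. At an unadjusted p under 0.05 in limma there were 1, 2 and 0 in these lists. As ranges without the pairing, summed intensities overlapped for Langerhans cells (1780 to 2670 against 1842 to 2828), T cells (2242 to 3134 against 1765 to 2743) and endothelium (347 to 418 against 347 to 420). Within replicates 1, 2 and 3 the median ratio was 0.06, -0.69 and -0.04 for Langerhans cell markers. It was 0.19, 0.20 and 0.27 for T cell markers and 0.03, -0.03 and 0.00 for endothelial markers. Only markers past the filter on dim probes were measured, so their detection is no result. Ptprc, Cd247 and Tek, of the last 3 lists, had a probe but did not enter the test. The part of these markers in the desmosomal values was not tested.

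**Figure D4:**
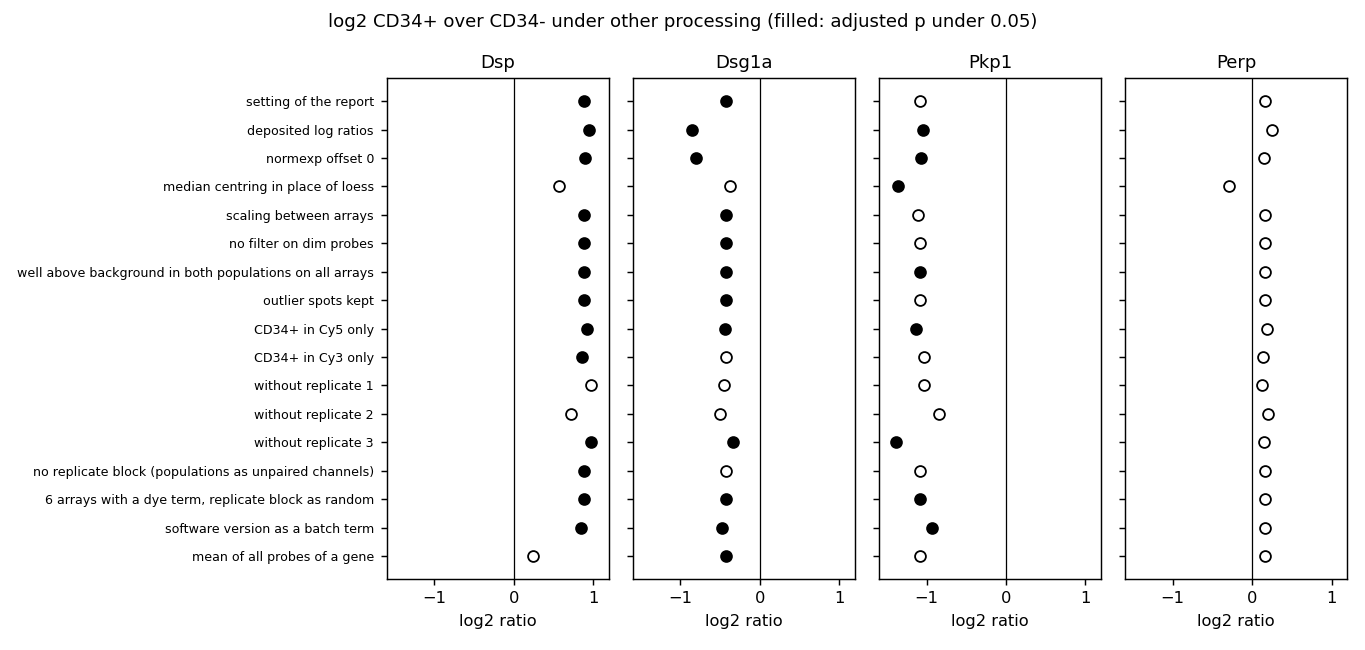
Log2 ratio of Dsp, Dsg1a, Pkp1 and Perp under the setting of the report and 16 alternatives; filled circles passed at an adjusted p under 0.05. Dsp and Dsg1a keep their side of 0 throughout, from 0.24 to 0.98 and from -0.85 to -0.34, Pkp1 stays between -1.38 and -0.84, and Perp crosses 0 under median centring.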

How the data were processed

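RNA levels were read from 6 arrays of 2 colours, with 22393 features each. Per the file headers, Agilent Feature Extraction gave the intensities of spots and local background. Log10 ratios of Cy5 over Cy3, taken by that software after background subtraction and dye normalisation, were deposited with a p-value from its error model. Version A.6.1.1 is named for replicate 3 and A.7.5.1 for replicates 1 and 2. The deposited value table equals the negative of these log10 ratios (largest difference 0; column medians 0.00257, 0.00, 0.00, 0.00274, 0.00 and 0.00187). Labels number 4 arrays by replicate; the other 2 were taken as replicate 3. Replicates count as separate biological samples per the labels.

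Intensities were corrected with normexp (offset 50) and loess in limma 3.58.1 (R 4.3.3), control and outlier spots at weight 0. Levels in each population came after Aquantile scaling between arrays. Log2 ratios were turned to CD34+ over CD34-, the 2 arrays of a replicate averaged, and tested against 0 with lmFit and eBayes (Benjamini-Hochberg, 0.05). A filter kept probes marked well above background, in either population, for 2 or more of the 3 replicates; it left out 472 of 20868, and 1 more for outlier marks. The number of arrays limits the precision, and the offset understates changes of dim probes.

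RefSeq accessions in a table of assembly GRCm38.p6 named 8947 probes, and descriptions in the files named 23, 402 and 653 more by patterns, symbols and synonyms. The remaining 10843 are unnamed. Dsc1, Dsc2, Dsc3, Pkp1 and Perp matched by accession, the other members by description, and desmoglein type 1 was taken as Dsg1a, of which Dsg1 is a synonym in the table. Genes named in the text were all members and other desmosome genes, up to 3 rises and 3 falls of each list or its smallest adjusted p, the genes of the sort, and the 3 nearest to the member with the smallest adjusted p; the remaining values of replicates and markers follow from these. Members and lists were chosen with earlier results of these data known.

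The populations are paired on each array. Deviations of the channels from their population means correlated over probes with r of 0.798, 0.717 and 0.811 in replicates 1, 2 and 3, but both channels share their spots.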

Additional observations from a re-analysis of the deposited data

How the results depend on the processing

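With 3 replicates the calls were fragile. Over all probes 2452 passed (1102 rose, 1350 fell). Leaving out a replicate gave 0 to 4242 passing probes (0 to 2063 rises, 0 to 2179 falls), with 0 to 1 members rising, 0 to 3 falling, 0 to 2 other desmosome genes and 0 to 5 adherens junction genes. The 0 came without replicate 1, where 4679 probes had an unadjusted p under 0.05 in limma. Dsg1a did not pass without replicate 1 (adjusted p = 0.153) or replicate 2 (0.119), nor did Dsp (0.107 and 0.0537). Without the replicate block, populations as unpaired channels, 549 passed (278 rose, 271 fell), with 0 falling members (Dsg1a at an adjusted p of 0.534) and 0 adherens junction genes; Dsp still passed. All 6 arrays with a dye term and the replicate block as random gave 4284 (1962 and 2322), 2 falling members and 6 adherens junction genes. A batch term for the scanner software gave 4805 (2359 and 2446), 3 falling members, 2 other desmosome genes and 6 adherens junction genes.

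Falling members numbered 2 on the deposited log ratios (median -0.20), with an offset of 0 (median -0.19), with probes above background everywhere and with CD34+ in Cy5 only, and 0 with CD34+ in Cy3 only. Under median centring 0 members rose, 1 other desmosome gene and 1 adherens junction gene passed, and Perp turned to -0.29; under averaged probes 0 members rose. Dsc3 turned to 0.05 without replicate 3, in a range of -0.33 to 0.05 over the replicates left out. The cause of these moves was not tested. Dsg1a kept its call in 11 of 16 alternatives and Dsp in 12, both always with the same sign; Dsg2, Dsc1, Dsc2 and Jup passed in none.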
